A study of Homo sapiens with 5 samples.

Results

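The 41 genes described here encode the proteins that squamous epithelial cells use to build their outer layers and to hold on to each other: precursors and cross-linkers of the cornified envelope, desmosomal cadherins, S100 calcium-binding proteins, secreted protease inhibitors and claudins. They were chosen by name, and the value of each gene was the median of the probe sets that name it and no other gene. All 41 of the 41 had a value, out of 18239 genes on the array, read by 76 probe sets. In 26 of them the value rests on 1 probe set and in 15 on several. The cells were GFP-SAS, a line derived from a squamous cell carcinoma of the tongue that carries green fluorescent protein, and every group was harvested after 24 h. The groups were siAURKA-1 and siAURKA-2 (siRNAs against AURKA, each at 10 nM), siNT (a non-targeting siRNA), MLN8237 (alisertib, a small-molecule inhibitor of Aurora kinase A, at 100 nM) and DMSO (its vehicle). AURKA encodes Aurora kinase A, which acts at centrosomes and on the mitotic spindle. Each group is 1 Affymetrix GeneAtlas array of this 1 cell line, so no difference below has a replicate check, no test was possible and no p-value is given.

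Values are log2 signals from which the authors' table has the median of the 5 arrays taken away, probe set by probe set. A value of 0 is therefore the middle of the 5 arrays for a probe set, not an absence of signal, and a gene cannot be ranked against another by abundance. For the same reason the label of a squamous line could not be checked against the level of its defining markers, and genes near the detection limit could not be told from genes that stayed level. AURKA, the target of both siRNAs, read -3.36 with siAURKA-1, -2.64 with siAURKA-2, 0.00 with siNT, 0.64 with MLN8237 and 0.15 with DMSO, so the arrays of both siRNAs carry the reduction their labels imply. Arrays differed in spread: the standard deviation over all probe sets was 0.293 with siAURKA-1 and 0.248 with siAURKA-2, against 0.167 with siNT, 0.118 with MLN8237 and 0.139 with DMSO. Markers of fibroblasts (8 genes), leukocytes (7 genes with a value) and endothelium (6 genes) stayed between -0.19 and 0.16 on every array. The difference between the ends of the control transcripts, a measure of RNA integrity, ranged over the arrays from -0.11 to 0.14 for ACTB and from -0.02 to 0.05 for GAPDH, relative to their own medians.

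As keratinocytes leave the basal layer they replace their plasma membrane by the cornified envelope, a sheet of proteins such as involucrin, small proline-rich proteins and filaggrin that transglutaminases join by covalent bonds. Desmosomes, whose adhesive part is made of desmogleins and desmocollins, tie neighbouring cells together and anchor their keratin filaments, and claudins form the strands of tight junctions. Many S100 genes lie beside the envelope genes in the epidermal differentiation complex. Stratified oral epithelium and the carcinomas that come from it use much of this programme to varying degrees.

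Most of the 41 genes differed little among the treatments. Over the 5 arrays, 31 of them spanned less than 1.5-fold (0.58 on the log2 scale) from the lowest to the highest array. The other 10 were S100A9, CLDN4, CLDN1, S100A11, DSG2, CSTA, DSG3, SCEL, DSC2 and S100A2. That is 24.4% of the genes, against 16.2% of all genes on the array. In 4 of the 41 the span reached 2-fold (9.76%, against 4.89% of all genes): S100A9 (2.14), CLDN4 (1.51), CLDN1 (1.21) and S100A11 (1.11).

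**Figure D1:**
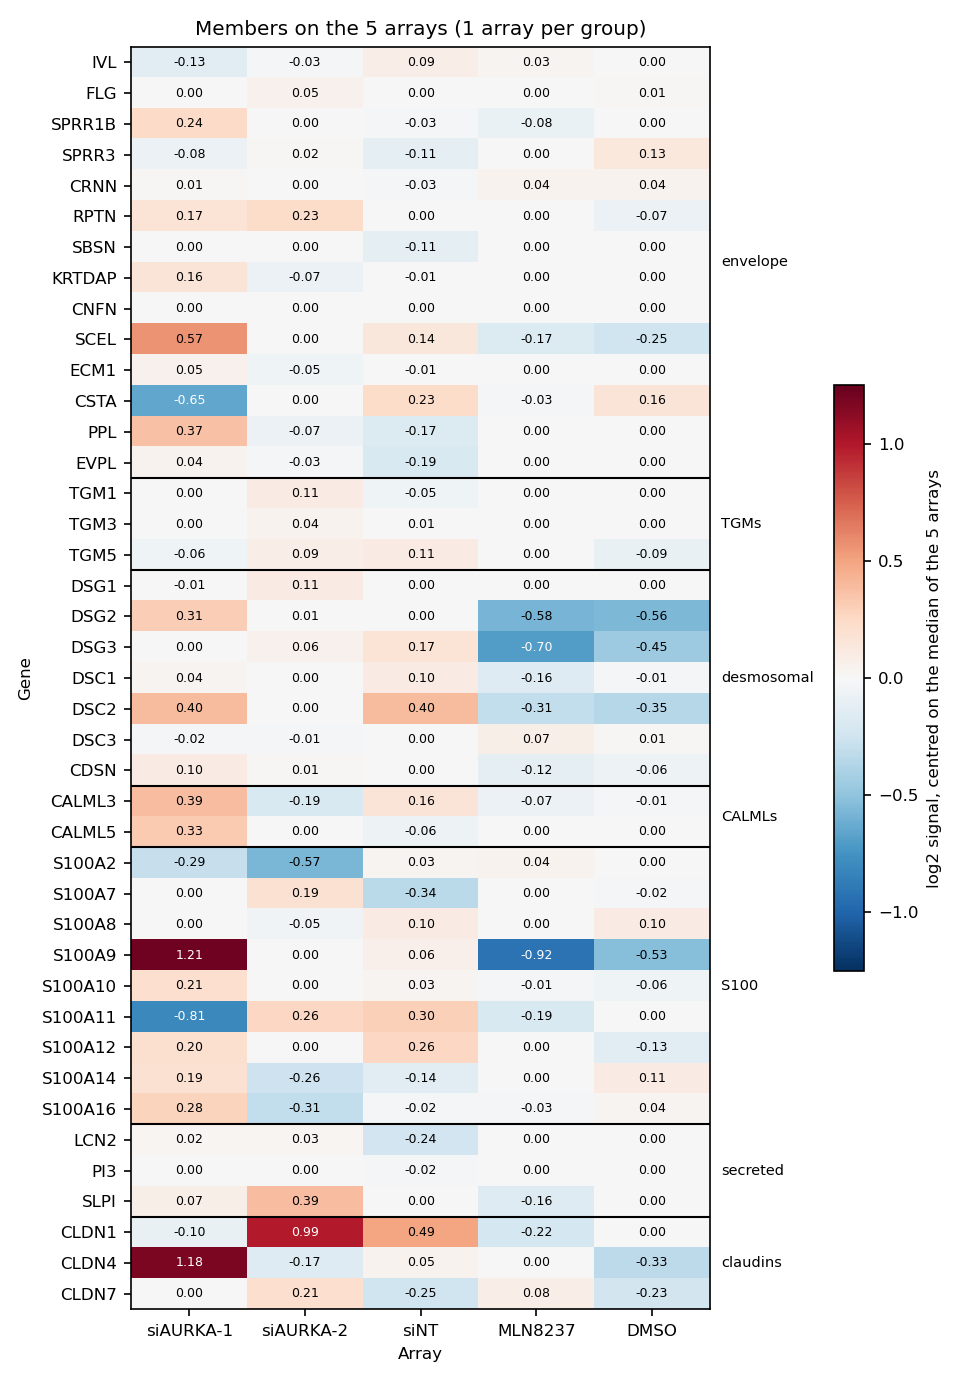
Centred log2 signal of each of the 41 genes (rows, grouped by role) on each of the 5 arrays (columns, 1 array per group), with red above 0 and blue below 0. Strong colour is limited to few rows, led by S100A9 (1.21 with siAURKA-1, -0.92 with MLN8237) and CLDN4 (1.18 with siAURKA-1), while rows such as CNFN, PI3 and FLG are near 0 throughout.

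Against siNT, siAURKA-1 gave 2 members at least 2-fold higher, S100A9 and CLDN4, and 1 at least 2-fold lower, S100A11. Of all genes, 0.587% were higher and 1.38% lower by this much. At 1.5-fold the members were 2 higher and 3 lower (all genes 2.57% and 4.48%), the lower ones adding CSTA and CLDN1. With siAURKA-2 none of the 41 reached 2-fold in either direction (all genes 0.389% higher and 0.872% lower). At 1.5-fold, 0 were higher (all genes 1.96%) and 1, S100A2, was lower (all genes 3.11%). Set directly against each other, siAURKA-1 gave 2 members at least 2-fold higher than siAURKA-2 (CLDN4 and S100A9; all genes 0.97%) and 2 at least 2-fold lower (CLDN1 and S100A11; all genes 1.19%). At 1.5-fold these counts were 2 and 3 (all genes 3.68% and 3.99%). The DMSO array was also used as the control of the siRNAs. Against it siAURKA-1 gave 2 members at least 2-fold higher, again S100A9 and CLDN4, and 0 lower (all genes 0.735% and 1.04%), or 5 and 2 at 1.5-fold (all genes 3.27% and 3.57%). Against it siAURKA-2 gave 0 and 0 at 2-fold (all genes 0.724% and 0.559%), or 1 and 0 at 1.5-fold (all genes 2.65% and 2.55%), the 1 being CLDN1. In these bulk samples, fewer cells that make an mRNA and less mRNA per cell cannot be told apart. The median difference of the 41 genes was 0.06 with siAURKA-1, 0.00 with siAURKA-2 and 0.01 for siAURKA-1 minus siAURKA-2, beside 0.00 over all genes in each.

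**Figure D2:**
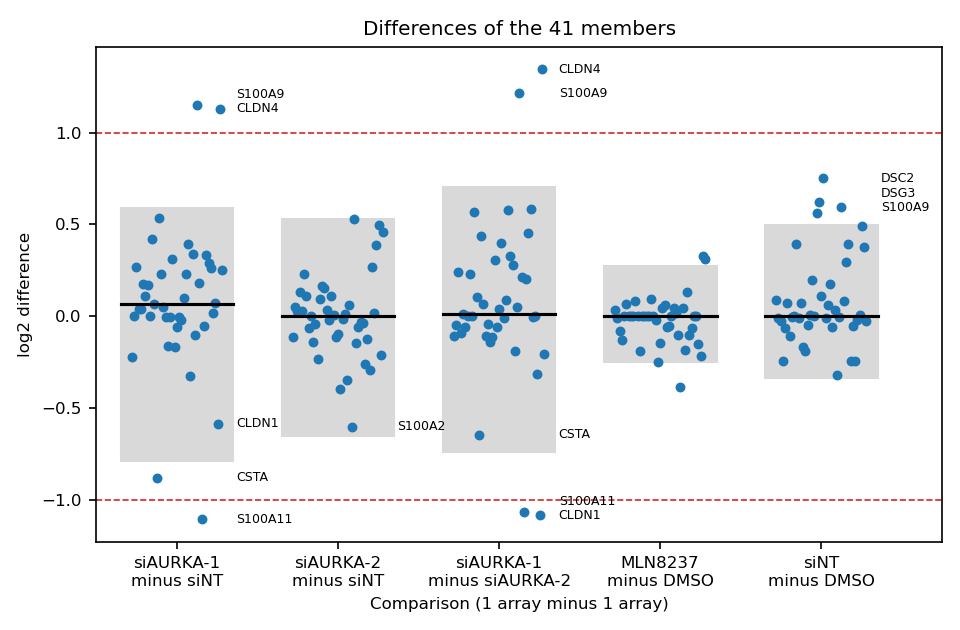
Differences of the 41 genes (points, log2 scale) in 5 comparisons of 1 array with 1 array, with the median of the 41 (black line), the range that holds the middle 95% of all genes (grey) and the 2-fold limits (dashed). Genes at least 1.5-fold apart are named: the widest were CLDN4 (1.34) and S100A9 (1.21) for siAURKA-1 minus siAURKA-2, and no gene is named for MLN8237 minus DMSO.

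The S100 family gave both the highest and the lowest difference of siAURKA-1 from siNT. S100A9, a subunit of calprotectin that neutrophils and stressed epithelia make, read 1.21 with siAURKA-1, 0.00 with siAURKA-2, 0.06 with siNT, -0.92 with MLN8237 and -0.53 with DMSO. The siAURKA-1 array stood highest, the other siRNA arrays lay close together in the middle, and the arrays without siRNA were lowest. It was 2.22-fold higher with siAURKA-1 than with siNT (1.15, rank 65 from the highest of 18239 genes) and 3.36-fold higher than with DMSO (1.75). With siAURKA-2 it differed by -0.06 from siNT and by 0.53 from DMSO. All these values of S100A9 rest on 1 probe set. Its partner in calprotectin, S100A8, spanned 0.15 over the arrays, with 0.00 for siAURKA-1, -0.05 for siAURKA-2, 0.10 for siNT, 0.00 for MLN8237 and 0.10 for DMSO. S100A12, which lies between those genes on the chromosome and encodes a ligand of the receptor RAGE, read 0.20, 0.00 and 0.26 with siAURKA-1, siAURKA-2 and siNT, then 0.00 with MLN8237 and -0.13 with DMSO. The difference of S100A9 was thus not seen in its immediate S100 neighbours.

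S100A11, whose product takes part in membrane repair and in keratinocyte growth control, was lowest on the array where S100A9 was highest. It read -0.81 with siAURKA-1, 0.26 with siAURKA-2, 0.30 with siNT, -0.19 with MLN8237 and 0.00 with DMSO. The siAURKA-1 array was well below the other 4, which lay within 0.48 of each other. With siAURKA-1 the gene was 2.15-fold below siNT (-1.11), 2.10-fold below siAURKA-2 (-1.07) and 1.75-fold below DMSO (-0.81), so the 2-fold mark was missed against DMSO. Its probe set is of a type (_s_at) whose probes match transcripts of more than 1 gene, so other transcripts may contribute. Its neighbour S100A10, the partner of annexin A2, differed from siNT by 0.18 with siAURKA-1 in both of its probe sets and by -0.03 with siAURKA-2.

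The remaining S100 genes differed less. S100A2, a target of p53 family factors found in basal keratinocytes, read -0.29 with siAURKA-1, -0.57 with siAURKA-2, 0.03 with siNT, 0.04 with MLN8237 and 0.00 with DMSO. Both AURKA siRNAs were below the other 3 arrays, by -0.33 and -0.60 relative to siNT. S100A16 read 0.28 with siAURKA-1, -0.31 with siAURKA-2, -0.02 with siNT, -0.03 with MLN8237 and 0.04 with DMSO, and S100A14, the adjacent gene, read 0.19, -0.26, -0.14, 0.00 and 0.11 in the same order of arrays. Both were highest with siAURKA-1 and lowest with siAURKA-2, at 0.58 and 0.45 apart. S100A7, psoriasin, an antimicrobial protein of inflamed skin, read 0.00 with siAURKA-1, 0.19 with siAURKA-2, -0.34 with siNT, 0.00 with MLN8237 and -0.02 with DMSO. Its differences from siNT (0.34 and 0.53) follow a low siNT array, since against DMSO they were 0.02 and 0.21. Across the 9 S100 members, siAURKA-1 minus siNT was positive in 5 and negative in 4 (median 0.18), and siAURKA-2 minus siNT was positive in 1 and negative in 8 (median -0.12). The median over all genes was 0.00 in both. Some of the 8 were small, as for S100A9 (-0.06), S100A11 (-0.04) and S100A10 (-0.03). Against DMSO the signs were 6 positive and 3 negative with siAURKA-1 (median 0.09), and 5 and 4 with siAURKA-2 (median 0.06), so the count depends on the control.

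Because S100A9 and S100A11 lay at opposite ends with siAURKA-1, the sequences before their starts are shown, from RefSeq on GRCh38.p14, written 5′ to 3′ on the strand of the gene and ending at the base before the start. Capitals mark matches, on either strand, to 4 motifs. The letters searched were TGANTCA for AP-1 and AACCNGTT for Grainyhead-like factors. For C/EBP factors they were TTGCNNAA. For the TATA box they were TATAAA. The S100A9 window (chr1:153357604-153357853, plus strand) holds a Grainyhead-like match 199 to 192 bases before the start and a TATA box 29 to 24 bases before it. The S100A11 window (chr1:152037005-152037254, minus strand) holds a C/EBP match 33 to 26 bases before the start.
S100A9: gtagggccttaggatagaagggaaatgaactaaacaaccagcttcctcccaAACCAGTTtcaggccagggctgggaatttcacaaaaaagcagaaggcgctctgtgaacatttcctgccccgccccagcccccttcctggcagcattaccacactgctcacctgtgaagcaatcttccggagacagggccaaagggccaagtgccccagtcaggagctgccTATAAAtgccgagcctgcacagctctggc
S100A11: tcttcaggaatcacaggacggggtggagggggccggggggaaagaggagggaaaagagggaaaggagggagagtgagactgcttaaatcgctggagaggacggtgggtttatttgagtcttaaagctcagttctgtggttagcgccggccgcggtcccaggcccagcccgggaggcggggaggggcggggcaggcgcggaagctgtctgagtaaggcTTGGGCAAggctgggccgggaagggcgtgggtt

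The claudins gave different patterns for different genes. CLDN4, a tight junction claudin of many epithelia, read 1.18 with siAURKA-1, -0.17 with siAURKA-2, 0.05 with siNT, 0.00 with MLN8237 and -0.33 with DMSO. The siAURKA-1 array stood apart from the other 4, and all 3 of its probe sets showed it, at 1.06 to 1.40 above siNT. The gene was 2.19-fold higher with siAURKA-1 than with siNT (1.13, rank 71 from the highest), 2.54-fold higher than with siAURKA-2 (1.34) and 2.85-fold higher than with DMSO (1.51). All 3 probe sets are of the _s_at type. CLDN1, the claudin required for the epidermal water barrier, read -0.10 with siAURKA-1, 0.99 with siAURKA-2, 0.49 with siNT, -0.22 with MLN8237 and 0.00 with DMSO. Here siAURKA-2 was highest and siNT next, while siAURKA-1 was level with the arrays that had no siRNA. Its differences from siNT were -0.59 (siAURKA-1) and 0.50 (siAURKA-2), each shared in direction by its 4 probe sets, and with siAURKA-1 it was 2.12-fold below siAURKA-2 (-1.09, and -1.35 to -0.88 over the probe sets). Against DMSO the difference with siAURKA-1 shrank to -0.10 and that with siAURKA-2 was 0.99. CLDN7 read 0.00 with siAURKA-1, 0.21 with siAURKA-2, -0.25 with siNT, 0.08 with MLN8237 and -0.23 with DMSO, so that both AURKA siRNAs lay above siNT (0.25 and 0.46) and MLN8237 lay above DMSO (0.31).

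The windows of CLDN4 and CLDN1 are shown in the same way, and a link between motif and difference was not tested. CLDN4 (chr7:73830746-73830995, plus strand) holds 2 AP-1 matches, 242 to 236 and 161 to 155 bases before the start, and CLDN1 (chr3:190322447-190322696, minus strand) holds none of the 4 motifs.
CLDN4: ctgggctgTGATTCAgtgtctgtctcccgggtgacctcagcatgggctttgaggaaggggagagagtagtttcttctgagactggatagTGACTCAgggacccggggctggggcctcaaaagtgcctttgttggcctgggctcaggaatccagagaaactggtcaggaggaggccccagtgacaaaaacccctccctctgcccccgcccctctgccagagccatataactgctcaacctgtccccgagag
CLDN1: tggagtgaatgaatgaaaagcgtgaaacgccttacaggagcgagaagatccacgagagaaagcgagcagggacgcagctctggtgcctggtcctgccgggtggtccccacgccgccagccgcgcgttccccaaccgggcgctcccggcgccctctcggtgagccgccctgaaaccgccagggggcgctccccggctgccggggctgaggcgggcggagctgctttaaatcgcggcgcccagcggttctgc

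Other tight junction and desmosome genes, from lists that hold no member, were set beside them. Of 12 further tight junction genes with a value, siAURKA-1 put 4 above siNT by 1.5-fold or more (33.3%, against 2.57% of all genes). It put 1 below siNT by as much (8.33%, against 4.48% of all genes), and in so short a list 1 gene is already that share. OCLN, encoding the strand protein occludin, was 1.68 above siNT, CGN, encoding the cytoplasmic plaque protein cingulin, 1.15, MARVELD3, a relative of occludin, 0.83 (in the direction of 2 of its 3 probe sets), and CLDN12 0.69. CLDN23 was lower (-0.92). With siAURKA-2 CLDN12 was again higher (0.62), and OCLN, CGN and MARVELD3 differed by -0.29, -0.03 and -0.26. That made 1 of the 12 higher and 0 lower at 1.5-fold (all genes 1.96% and 3.11%). Per array, OCLN read 1.58 with siAURKA-1, -0.39 with siAURKA-2, -0.11 with siNT, 0.00 with MLN8237 and 0.00 with DMSO. As for CLDN4, the siAURKA-1 array alone was far from the rest.

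Among 7 further desmosome genes, siAURKA-1 put 2 above siNT by 1.5-fold or more and 0 below it (all genes 2.57% and 4.48%). The 2 were PERP, a desmosomal membrane protein and p53 target (0.80), and DSP, encoding desmoplakin, the link to keratin filaments (0.60). DSP was the only one of the 7 at least 1.5-fold lower with siAURKA-2 (-1.36, all genes 3.11%), and 0 were higher (all genes 1.96%). It read 0.78 with siAURKA-1, -1.19 with siAURKA-2, 0.17 with siNT, 0.00 with MLN8237 and 0.00 with DMSO, which puts the AURKA siRNAs on opposite sides of all other arrays. JUP, encoding plakoglobin, gave 0.42 and -0.05, and the plakophilin genes PKP1, PKP2 and PKP3 gave 0.15, -0.47 and -0.07 with siAURKA-1 and 0.00, -0.18 and -0.03 with siAURKA-2.

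**Figure D3:**
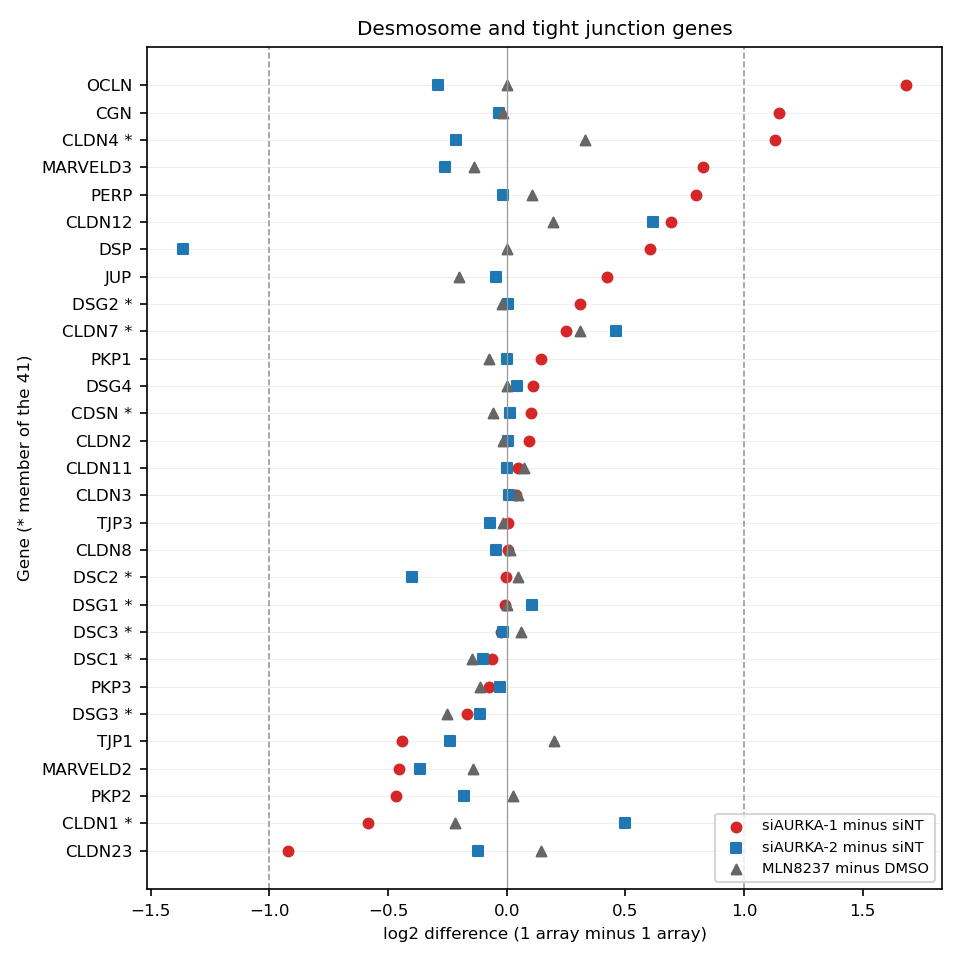
Log2 differences of desmosome and tight junction genes (rows; an asterisk marks the members) for siAURKA-1 minus siNT (circles), siAURKA-2 minus siNT (squares) and MLN8237 minus DMSO (triangles), each 1 array minus 1 array, with 2-fold limits dashed. OCLN (1.68), CGN (1.15) and CLDN4 (1.13) pass 2-fold with siAURKA-1, DSP (-1.36) does so with siAURKA-2, and no gene does so with MLN8237.

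The desmosomal cadherins separated the arrays in another way. DSG2, the desmoglein found in nearly all desmosome-bearing epithelia, read 0.31 with siAURKA-1, 0.01 with siAURKA-2, 0.00 with siNT, -0.58 with MLN8237 and -0.56 with DMSO. DSG3, the desmoglein of basal and oral epithelium, read 0.00 with siAURKA-1, 0.06 with siAURKA-2, 0.17 with siNT, -0.70 with MLN8237 and -0.45 with DMSO. DSC2, the most widely expressed desmocollin, read 0.40 with siAURKA-1, 0.00 with siAURKA-2, 0.40 with siNT, -0.31 with MLN8237 and -0.35 with DMSO. In all 3 genes every array of siRNA-treated cells, the non-targeting one included, lay above both arrays of cells without siRNA, by gaps of 0.56, 0.45 and 0.31. Between the controls, siNT was above DMSO by 0.56 for DSG2 (1.48-fold), 0.62 for DSG3 (1.54-fold) and 0.75 for DSC2 (1.68-fold), with every probe set of these genes in the same direction. Relative to siNT, the AURKA siRNAs gave at most 0.31 in the upward direction (DSG2, siAURKA-1) and -0.40 in the downward direction (DSC2, siAURKA-2).

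The same order of arrays was counted over all members after these values had been seen. In 10 of the 41 genes all arrays with siRNA were above both arrays without (24.4%, against 13.1% of all genes), and in 2 they were all below (all genes 6.35%). Besides DSG2, DSG3 and DSC2, the gap was 0.53 for S100A9 and 0.17 for SCEL, and under 0.1 for the other 5, CDSN, DSC1, S100A10, SLPI and RPTN. Between siNT and DMSO themselves, 3 members were at least 1.5-fold higher with siNT, DSC2, DSG3 and S100A9 (all genes 1.53%), and 0 were at least 1.5-fold lower (all genes 0.554%). None reached 2-fold (all genes 0.23% higher and 0.0658% lower). The siNT and DMSO arrays differ both in transfection and in being separate arrays, and these cannot be told apart.

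The other desmosomal members were close to level. DSG1, the desmoglein of the upper epidermis, spanned 0.11 over the arrays, DSC1, its desmocollin counterpart, 0.26, DSC3, the basal desmocollin, 0.10, and CDSN, encoding the corneodesmosin that holds cornified cells together, 0.22. In the RefSeq order along the chromosome, DSC3, DSC2, DSC1 and DSG1 follow each other, and DSG3 and DSG2 are adjacent beyond DSG4. The genes that differed (DSC2, DSG3 and DSG2) thus lie among genes that stayed nearly level.

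**Figure D4:**
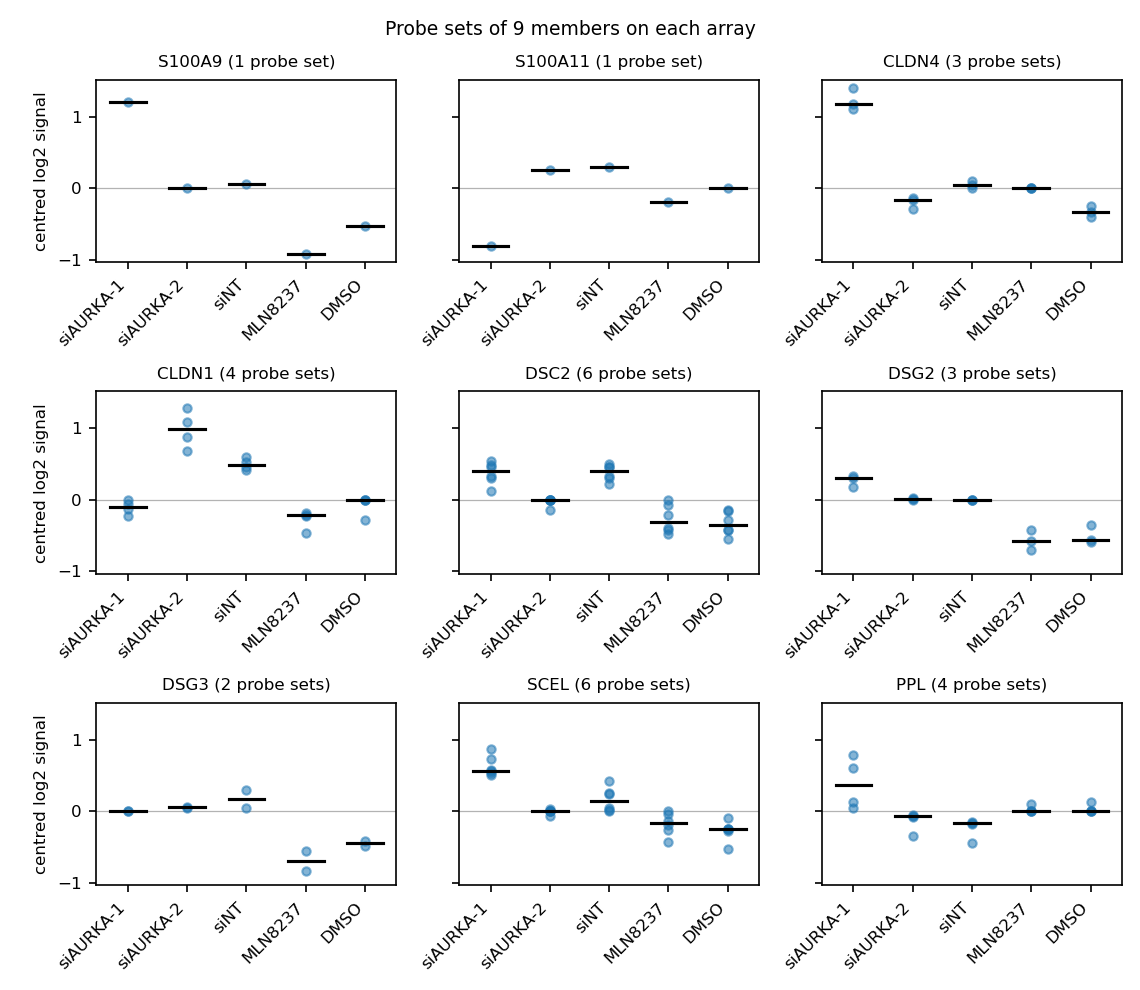
Centred log2 signal (vertical axis) of every probe set (points) of 9 members on the 5 arrays (horizontal axis), with the gene value, the median of the probe sets, as a bar. All probe sets of CLDN4 are highest with siAURKA-1 and all of CLDN1 with siAURKA-2; those of DSG2 and DSG3 are lowest with MLN8237 and DMSO; the 4 of PPL scatter from 0.04 to 0.79 with siAURKA-1.

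Precursors of the cornified envelope were mostly level. Of the 14 genes of this kind, siAURKA-1 put 1 below siNT by 1.5-fold or more (7.14%, against 4.48% of all genes) and 0 above it (all genes 2.57%), with a median of 0.09. In so short a list these counts do not set the precursors apart from all genes. With siAURKA-2 none reached 1.5-fold either way (all genes 1.96% higher and 3.11% lower) and the median was 0.03. CSTA, encoding cystatin A, a cysteine protease inhibitor that is built into the envelope, was the exception. It read -0.65 with siAURKA-1, 0.00 with siAURKA-2, 0.23 with siNT, -0.03 with MLN8237 and 0.16 with DMSO. The siAURKA-1 array was below the other 4, by 1.84-fold relative to siNT (-0.88), 1.57-fold relative to siAURKA-2 (-0.65) and 1.75-fold relative to DMSO (-0.81). This rests on 1 probe set.

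PPL, encoding periplakin, an early scaffold of the envelope, read 0.37 with siAURKA-1, -0.07 with siAURKA-2, -0.17 with siNT, 0.00 with MLN8237 and 0.00 with DMSO. With siAURKA-1 it was 0.53 above siNT, and its 4 probe sets were unequal, at 0.20 to 1.24. EVPL, encoding envoplakin, the partner of periplakin, gave 0.23 (siAURKA-1) and 0.16 (siAURKA-2). SCEL, encoding sciellin, an envelope precursor with repeated domains, read 0.57 with siAURKA-1, 0.00 with siAURKA-2, 0.14 with siNT, -0.17 with MLN8237 and -0.25 with DMSO. All 6 of its probe sets were higher with siAURKA-1 than with siAURKA-2 (0.51 to 0.87) and than with DMSO (0.66 to 1.15). Relative to siNT the siAURKA-1 difference was 0.42, short of 1.5-fold.

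The classical structural precursors showed no such spread. IVL, encoding involucrin, the early scaffold that transglutaminases cross-link first, read -0.13 with siAURKA-1, -0.03 with siAURKA-2, 0.09 with siNT, 0.03 with MLN8237 and 0.00 with DMSO. FLG, encoding profilaggrin, spanned 0.05 over the arrays. SPRR3, a small proline-rich protein abundant in oral and oesophageal epithelium, read -0.08 with siAURKA-1, 0.02 with siAURKA-2, -0.11 with siNT, 0.00 with MLN8237 and 0.13 with DMSO, and SPRR1B differed from siNT by 0.27 and 0.03. RPTN (repetin), CRNN (cornulin, a protein of upper oral epithelium), KRTDAP, SBSN (suprabasin), ECM1 and CNFN (cornifelin) spanned 0.30, 0.07, 0.23, 0.11, 0.10 and 0.00. CNFN had the same value on all arrays.

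Windows before the starts of SCEL (chr13:77535456-77535705, plus strand) and IVL (chr1:152908296-152908545, plus strand) are shown as examples of envelope genes that carry an AP-1 match, a letter string common among these genes. In SCEL it lies 49 to 43 bases before the start, with a C/EBP match at 178 to 171. In IVL it lies 123 to 117 bases before the start, with a TATA box at 30 to 25.
SCEL: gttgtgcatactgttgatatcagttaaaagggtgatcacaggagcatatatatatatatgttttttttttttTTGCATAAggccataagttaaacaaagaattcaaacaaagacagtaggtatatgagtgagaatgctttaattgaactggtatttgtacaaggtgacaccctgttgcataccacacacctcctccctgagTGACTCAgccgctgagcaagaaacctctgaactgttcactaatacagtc
IVL: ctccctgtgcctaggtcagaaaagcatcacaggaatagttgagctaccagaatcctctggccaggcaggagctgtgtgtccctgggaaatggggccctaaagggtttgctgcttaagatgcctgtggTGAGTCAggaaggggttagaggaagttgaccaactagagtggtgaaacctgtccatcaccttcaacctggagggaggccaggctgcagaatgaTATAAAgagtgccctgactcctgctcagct

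RefSeq windows of 250 bases were found for 35 of the 41 genes, 41 windows in all because some genes have several starts, and some of these overlap. The AP-1 string was present in 14 of the 41 windows (34.1%), against 6.57% of the 35116 windows of all genes. The TATA box string was present in 13 (31.7%, against 10.7%), the C/EBP string in 8 (19.5%, against 9.05%) and the Grainyhead-like string in 3 (7.32%, against 1.49%). Of the 14 genes with the AP-1 string, 12 were under 1.5-fold from siNT with both AURKA siRNAs, the exceptions being CLDN4 and S100A2. Most of the 41 genes were also under that mark, since 31 spanned less than 1.5-fold over the 5 arrays. The count therefore does not set the genes with the string apart, and a link between string and difference was not tested. A match in letters does not show that a factor binds there.

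The cross-linking enzymes, calmodulin-like proteins and secreted proteins each spanned less than 1.5-fold over the arrays. The widest were CALML3 (0.577) and SLPI (0.544), beside a median span of 0.22 over all genes. TGM1, the membrane-bound transglutaminase of keratinocytes, gave 0.05 for siAURKA-1 minus siNT and 0.16 for siAURKA-2 minus siNT, and TGM3 and TGM5, which act in the later layers, stayed within 0.16 of siNT. CALML3, a calmodulin-like protein of epithelial cells, read 0.39 with siAURKA-1, -0.19 with siAURKA-2, 0.16 with siNT, -0.07 with MLN8237 and -0.01 with DMSO. Its 2 probe sets differed in size, at 0.02 and 0.44 for siAURKA-1 minus siNT. CALML5, the calmodulin-like skin protein, exceeded siNT by 0.39 on the siAURKA-1 array and by 0.06 on the siAURKA-2 array. LCN2, an iron-siderophore binding lipocalin, exceeded siNT by 0.26 and 0.27, and DMSO by only 0.02 and 0.03. The protease inhibitor genes PI3 (elafin) and SLPI gave 0.02 and 0.07 with siAURKA-1 and 0.02 and 0.39 with siAURKA-2.

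MLN8237, compared with its vehicle, gave the smallest differences of the 3 treatments in these genes. With it none of the 41 reached 1.5-fold from DMSO in either direction (all genes 0.367% higher and 0.115% lower), hence none reached 2-fold (all genes 0.0548% and 0.011%), and the median was 0.00. The highest were CLDN4 (0.33), CLDN7 (0.31) and S100A12 (0.13). The lowest were S100A9 (-0.39), DSG3 (-0.25) and CLDN1 (-0.22). For CLDN4 all 3 probe sets and for CLDN1 all 4 shared the direction. S100A9, CLDN1 and DSG3 were each lowest of the 5 arrays with MLN8237, whereas S100A9 and CLDN4 were highest with siAURKA-1. The choice of control mattered here. Against siNT, 4 members were at least 1.5-fold lower with MLN8237 (all genes 0.965%) and 0 higher (all genes 0.641%), and 0 reached 2-fold in either direction (all genes 0.0877% higher and 0.132% lower). The 4 were S100A9 (-0.98), DSG3 (-0.87), CLDN1 (-0.71) and DSC2 (-0.71). S100A9 has only 1 probe set, and in DSG3, CLDN1 and DSC2 all probe sets shared that direction. In these 4 genes siNT also lay above DMSO, and the comparison sets cells without siRNA against cells with one.

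Families related to the members were read in the same way. None of 7 further small proline-rich genes, 18 late cornified envelope genes and 18 other envelope genes with a value was at least 1.5-fold from siNT with either AURKA siRNA, or from DMSO with MLN8237. Over all genes the shares higher and lower were 2.57% and 4.48% with siAURKA-1 and 1.96% and 3.11% with siAURKA-2. With MLN8237 they were 0.367% and 0.115%. In lists this short, a count of 0 does not set a family apart from all genes. Among 11 further S100 genes, S100A4, which binds nonmuscle myosin and is often used as a mesenchymal marker, was the only one of the 11 at least 1.5-fold from siNT. It was higher with siAURKA-1 (9.09% of the 11, against 2.57% of all genes), and 1 gene is already that share. S100A4 read 1.46 with siAURKA-1, -0.49 with siAURKA-2, -0.12 with siNT, 0.00 with MLN8237 and 0.10 with DMSO. Its difference from siNT was 1.58 with siAURKA-1, a direction that its 3 probe sets shared, and -0.36 with siAURKA-2. S100A13, read by 1 probe set, was just short of 1.5-fold above siNT with siAURKA-1 (0.58). On that array it was past 1.5-fold above DMSO (0.65) and above siAURKA-2 (0.63).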

How the data were processed

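Total RNA was hybridised to Affymetrix GeneAtlas arrays, 1 per group. The deposited table holds 49386 probe sets and is taken as log2 signal: the authors' use of robust multi-array average (RMA) is named in the submitters' processing notes, and neither a version nor a log base was found in the sources at hand. For 49386 probe sets the 5 arrays had a median of exactly 0, so the authors' values are centred per probe set. In 52.1% of probe sets 2 or more arrays held the value 0.

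Probe sets naming 1 gene (45259) were matched by Entrez number to RefSeq names, and those naming several (1327) were left out. The gene value was the median of its probe sets (18239 genes), and a difference is 1 array minus 1 array. Members were described at 2-fold and 1.5-fold beside the same share of all genes. With 1 array per group no test was run. Python 3.11.15 and pandas 2.3.3 were used. The counting was tested on simulated data with shifts well past the 2-fold mark, which does not test genes near a threshold. The number of arrays limits the precision.

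Alternatives were the mean of probe sets, probe sets without _s_at and _x_at identifiers (probes shared between genes), arrays centred on their medians, other thresholds and other control arrays. The members, gene lists and the rule for named genes (2-fold in a comparison, or among its 3 highest or lowest members) were chosen with earlier results of these data known.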

Additional observations from a re-analysis of the deposited data

How the results depend on the processing

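No paired analysis was possible because each group has 1 array. Counts and medians of the 41 genes were the same, or within the tolerance (1.5 times for counts, 0.1 for medians), with the mean of probe sets. Centring the arrays on their medians could change nothing, because the median of every array was already 0. Without _s_at and _x_at probe sets, which leaves 37 genes and drops CLDN4 and S100A11, siAURKA-1 minus siNT had 1 gene at least 2-fold higher and 0 lower, and siAURKA-1 minus siAURKA-2 had 1 higher and 1 lower. At 3-fold, siAURKA-1 had 0 genes in either direction against siNT, and likewise 0 against siAURKA-2. At 1.5-fold, siAURKA-1 minus siNT had 3 lower, siAURKA-2 minus siNT 1 lower and siNT minus DMSO 3 higher. With DMSO, or the mean of both controls, in place of siNT, siAURKA-1 had 0 genes at least 2-fold lower; S100A11 then fell short of that mark. The control had the widest effect on single genes: with DMSO in place of siNT, 20 of 32 differences of the 16 named genes moved by more than 0.195 (the standard deviation of siNT minus DMSO over all genes) and 12 changed sign, among them DSC2 (0.35) and CLDN4 (0.16) with siAURKA-2 and DSG3 (0.45) with siAURKA-1. With siNT in place of DMSO, 10 of 16 MLN8237 differences moved and 5 changed sign, among them DSC2 (-0.71). With the mean of both, 15 of 48 moved and 10 changed sign. The PPL difference between siAURKA-1 and siNT was 0.29, and that of CALML3 0.02, without _s_at and _x_at probe sets. No difference of at least 2-fold changed sign under the alternatives run, but several of these could not change the values. No other control was run for siAURKA-1 minus siAURKA-2. The mean of probe sets cannot alter S100A9 or S100A11, which have 1 probe set each. CLDN4 and S100A11 drop out without _s_at probe sets. The lack of a sign change therefore says little about these genes. Without replicate arrays or expression levels, no error can be given and dim genes cannot be set aside.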

Other observations

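Epidermal barrier lipid genes and squamous transcription factors, from lists that hold no member, were examined beside the 41 genes. Of 13 barrier lipid genes with a value, 0 were at least 1.5-fold from siNT with siAURKA-1 (all genes 2.57% higher and 4.48% lower). With siAURKA-2, 1 was higher and 0 were lower (all genes 1.96% and 3.11%). The 1 was UGCG, which makes glucosylceramide, at 0.59 (0.85 against DMSO), which is just past that mark. SPTLC1, a subunit of serine palmitoyltransferase, was just short of it in the other direction with siAURKA-2 (-0.58, and -0.55 against DMSO), in all 4 of its probe sets. Of 16 transcription factor genes with a value, 3 were at least 1.5-fold higher and 2 lower with siAURKA-1 than with siNT (all genes 2.57% and 4.48%). With siAURKA-2 1 was higher and 0 were lower (all genes 1.96% and 3.11%). ZNF750 read 2.60 with siAURKA-1, 0.02 with siAURKA-2, 0.00 with siNT, -0.06 with MLN8237 and -0.06 with DMSO, and GRHL3 read 1.30, 0.00, -0.06, 0.00 and -0.24 on the same arrays. Like CLDN4 and OCLN, both were highest on the siAURKA-1 array. ELF3, an epithelial ETS factor, was above siNT with siAURKA-1 (1.14) and, as the 1 gene of the list, with siAURKA-2 (0.77), and above DMSO by 0.65 and 0.28. KLF4, a factor needed for the epidermal barrier, was below siNT with siAURKA-1 (-1.19) and differed by 0.23 with siAURKA-2, and siNT itself was 1.03 above DMSO, so that against DMSO these values were -0.16 and 1.26. OVOL2, a repressor of mesenchymal genes, was lower with siAURKA-1 (-0.84) and gave -0.55 with siAURKA-2. For OVOL2 siNT was 0.36 above DMSO, and against DMSO these values were -0.48 and -0.19, both short of 1.5-fold.

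Among the 4 squamous epithelial markers with a value, the basal keratin gene KRT5 read 0.32 with siAURKA-1, -1.82 with siAURKA-2, 0.00 with siNT, -0.26 with MLN8237 and 0.19 with DMSO. CDH1, encoding E-cadherin, read 0.52, -0.54, -0.08, 0.04 and 0.00 on the same arrays. Only 1 of the 2 CDH1 probe sets shared the direction of siAURKA-2 minus siNT (-0.46). Both of them were higher with siAURKA-1 than with siAURKA-2. Like DSP, the gene values of KRT5 and CDH1 were lowest with siAURKA-2 and highest with siAURKA-1. KRT14 had the same ends with a smaller span, at 0.10 with siAURKA-1 and -0.21 with siAURKA-2. EPCAM was also lowest with siAURKA-2 (-0.08), but it was highest with MLN8237 (0.11) and read 0.00 with siAURKA-1.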
